A study of Mus musculus with 9 samples.

Results

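The genes described are 7 members of the Fas death receptor and caspase pathways of the mouse: the receptor gene Fas, the adaptor gene Fadd, the initiator caspase gene Casp8, its relative and inhibitor Cflar, the effector caspase gene Casp6, and the mitochondrial arm's Casp9 and Apaf1. They were chosen by gene symbol, current or older, among the probe sets whose platform annotation gives exactly 1 symbol. This found 7 of 18193 genes, on 16 of 34945 probe sets. The choice was made with earlier results of these data known, so counts of the 7 beside all genes are only descriptive. Where a gene has several probe sets, the one of highest mean over the 9 arrays stands for it. Signal exceeded the 40th percentile on all 9 arrays for all 7, so all were tested among 13296 genes.

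The series concerns T cell acute lymphoblastic leukemia and excess NOTCH1, a receptor of T lineage commitment. RNA of sorted cells was hybridized to Affymetrix arrays in the groups NIC Tumor, Abnormal non-malignant and Control, with 3 arrays each. The labels name the groups only: the meaning of NIC and the population that was sorted are not given, nor is any genotype, strain, treatment, age, driving promoter or host of the tumors. Nothing states that arrays of a group stem from different animals, and the p-values measure only the spread between these arrays, which may be technical. Of 6 T lineage markers fixed for the check, 5 had a probe set and all 5 were well expressed, with a mean log2 level of 11.74 to 12.15 in tumors, 12.36 to 12.52 in non-malignant samples and 12.16 to 12.35 in controls.

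Fas is a cell surface receptor that, when its ligand binds, gathers the adaptor FADD, which in turn recruits pro-caspases. Casp8 encodes the protease that is activated on this complex and cleaves effector caspases, while the product of Cflar, cFLIP, resembles caspase-8 without its protease activity and competes for the same adaptor. In the mitochondrial route, cytochrome c released into the cytosol assembles APAF1 into the apoptosome, which activates the initiator caspase encoded by Casp9. Thymocytes that fail selection die mainly by the mitochondrial route, whereas Fas is best known for removing activated and self-reactive lymphocytes in the periphery.

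Several arrays stood apart. No arrays lay closer together than non-malignant 2 and 3 (SD of 0.16 over gene differences), and the next pair was controls 1 and 3 (0.30). Tumor 1 lay nearer to the non-malignant arrays (0.46 to 0.47) than to tumors 2 and 3 (0.63 and 0.79). Tumor 3 had the smallest spread of signal over its probe sets (SD 1.97, against 2.12 to 2.19 on the others). Control 2 alone carried signal of the Y-linked gene Eif2s3y (8.69, at most 4.18 elsewhere). It was also highest for Kdm5d, another Y-linked gene (5.12, at most 4.43 elsewhere), and lowest for the X-linked Xist (10.27, at least 12.38 elsewhere). The controls thus differed in sex-linked genes, and control 2 was not a repeat of the same RNA as controls 1 and 3. Results that rest on these arrays are given with and without them.

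Setting NIC tumors against controls asks what differs in the malignant state. The receptor gene Fas and the inhibitor gene Cflar fell in the tumors, and Casp8 rose. Fadd, Casp6, Casp9 and Apaf1 did not pass. Thus 1 of the 7 genes rose and 2 fell at an adjusted p under 0.05 by limma with Benjamini-Hochberg adjustment over all genes tested. Of all genes, 15.7% passed, 8.48% higher and 7.19% lower. Groups did not overlap in 5 of the 7 (2 higher, 3 lower), beside 32.5% of all genes (18.2% higher, 14.3% lower). The median log2 fold change of the 7 was −0.34, and that of all genes tested 0.06.

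**Figure D1:**
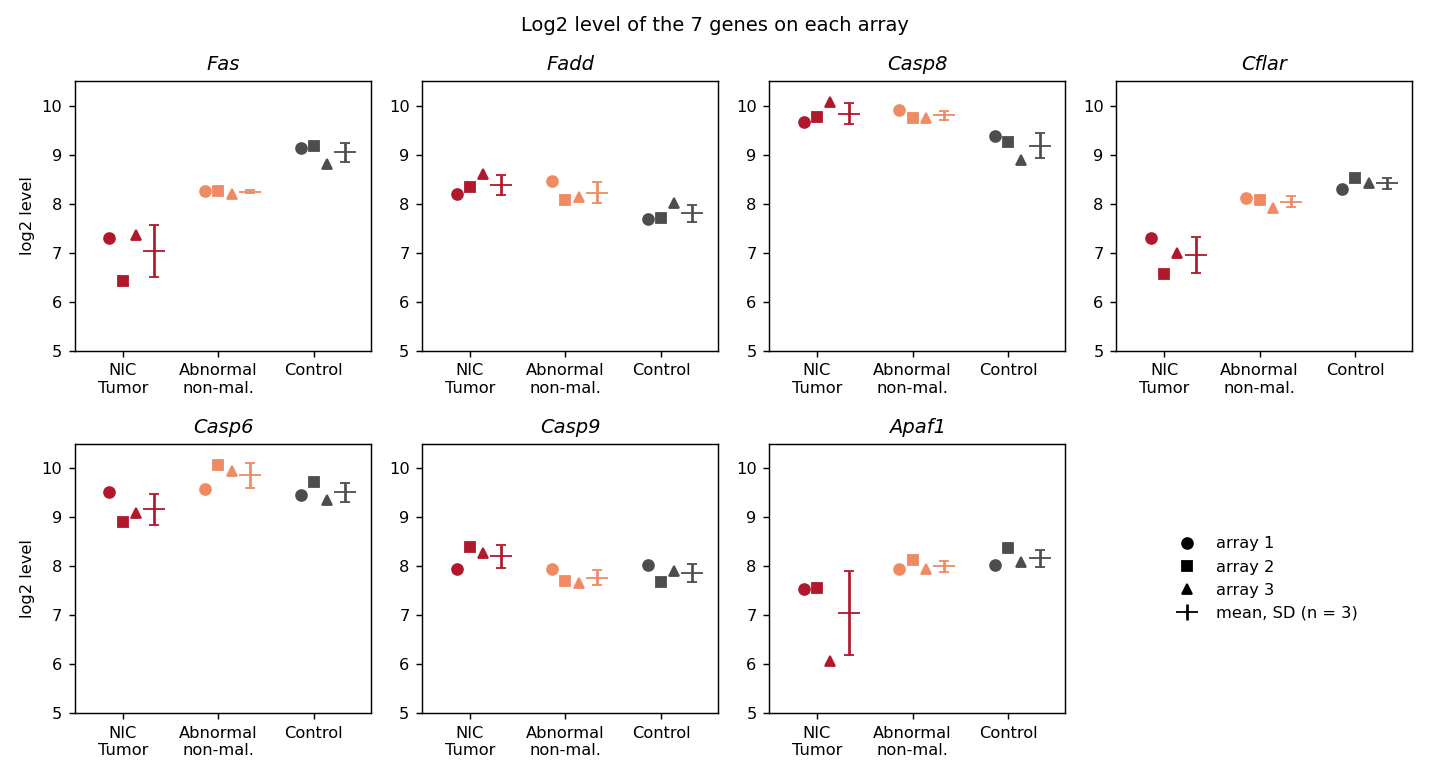
Log2 level of each gene (y axis) on the 3 arrays of each group (x axis). Symbols mark the array number and the bars the mean and SD (n = 3). Fas and Cflar are lowest in NIC tumors and highest in controls with no overlap between any groups, while tumor 3 stands far below the other tumors for Apaf1 (6.07).

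Fas, like Casp8, is read by only 1 of the probe sets used (1460251_at), so its levels have no second reading here. Fas had log2 levels of 7.30, 6.43 and 7.37 on tumor arrays 1, 2 and 3, of 8.26, 8.26 and 8.20 on the non-malignant arrays, and of 9.14, 9.18 and 8.82 on the controls. The 3 groups did not overlap, with the tumors lowest and the non-malignant samples between them and the controls. Means were 7.03 ± 0.52 in tumors, 8.24 ± 0.029 in non-malignant samples and 9.05 ± 0.20 in controls (SD, n = 3 each). Against controls the tumors fell by 2.01 on the log2 scale (SE 0.25, adjusted p = 0.00142 by limma), which is a ratio of 0.248. The fall passed in all 20 alternative settings, at −2.46 to −1.71. As these are bulk samples, fewer cells of a type and less RNA per cell cannot be told apart.

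Cflar, the inhibitor at the same receptor complex, followed Fas. Its log2 levels were 7.31, 6.57 and 6.99 in tumors 1, 2 and 3, against 8.12, 8.08 and 7.91 in the non-malignant samples and 8.30, 8.53 and 8.41 in controls. Again no groups overlapped, and tumor 2 was the lowest array for both genes. In tumors against controls Cflar fell by 1.46 (SE 0.20, adjusted p = 0.00228 by limma), a ratio of 0.364, and it passed in all 20 alternatives, at −1.73 to −1.19. Over the 9 arrays the levels of Fas and Cflar had a Pearson r of 0.97. This is a description of arrays that form 3 groups, so that it mostly reflects the order of the groups.

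Cflar has 5 probe sets, and they did not move alike. In tumors against controls, with every probe set tested on its own, 1424996_at (−1.46, adjusted p = 0.0041), 1425686_at (−2.12, adjusted p = 0.0243) and 1425687_at (−1.58, adjusted p = 0.0153) passed by limma. Probe set 1449317_at stood at −0.69 (adjusted p = 0.0829) and 1453482_at at −0.09 (adjusted p = 0.737). The table does not say which transcripts each of them reads. On 1425686_at, control 1 (9.46) lay well above controls 2 and 3 (7.43 and 7.53), and the tumors (6.48, 5.90 and 5.69) lay below all other arrays. Probe sets 1453482_at and 1425687_at exceeded the 40th percentile on 6 of 9 arrays, and the other 3 on all 9.

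The promoters of Fas and Cflar, from 250 bases before to 50 after the start site, are shown because these are the genes that fell together. Sequences are RefSeq's for GRCm38.p6, at chr19:34290409-34290708 on the + strand for Fas and chr1:58711241-58711540 on the + strand for Cflar, and all 7 genes matched an entry. Capitals mark matches, on either strand, to 4 motifs: TGGGAA, the core bound by RBPJ, the DNA-binding partner of Notch; CACGTG, the E-box bound by Myc and its partners; TTCNNNGAA, bound by STAT factors; and the NF-kappaB consensus.
Fas: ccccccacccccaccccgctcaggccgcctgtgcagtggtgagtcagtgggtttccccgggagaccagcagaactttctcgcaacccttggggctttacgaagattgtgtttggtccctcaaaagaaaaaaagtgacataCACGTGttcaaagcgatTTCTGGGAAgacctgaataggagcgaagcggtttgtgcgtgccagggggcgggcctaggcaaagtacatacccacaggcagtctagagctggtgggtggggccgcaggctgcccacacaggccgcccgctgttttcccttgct
Cflar: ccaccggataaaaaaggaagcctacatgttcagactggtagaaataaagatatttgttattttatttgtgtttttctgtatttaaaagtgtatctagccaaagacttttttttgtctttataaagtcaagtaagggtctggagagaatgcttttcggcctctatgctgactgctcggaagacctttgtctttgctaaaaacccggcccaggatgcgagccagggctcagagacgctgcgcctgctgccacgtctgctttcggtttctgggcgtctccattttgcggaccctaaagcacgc
In the Fas promoter, CACGTG lies at −110 to −105 from the start site, and TTCNNNGAA at −93 to −85, with TGGGAA inside it at −90 to −85. The other 6 promoters, Cflar included, hold none of the 4. Over 32851 promoters of 300 bases, 25.6% hold TGGGAA, 7.15% CACGTG, 8.3% TTCNNNGAA and 8.46% the NF-kappaB consensus. A match is a string of letters and not a measured site.

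Casp8 moved opposite to Cflar, its neighbour on chromosome 1: the start sites of their RefSeq promoters lie 91011 bases apart on the same strand, with no other protein-coding gene between the genes. Casp8 levels were 9.67, 9.76 and 10.08 in tumors 1, 2 and 3, against 9.90, 9.74 and 9.75 in the non-malignant samples and 9.39, 9.26 and 8.89 in controls. Every tumor and every non-malignant sample lay above every control. In tumors against controls Casp8 rose by 0.66 (SE 0.18, adjusted p = 0.0394 by limma), a ratio of 1.58. This call was close to the threshold and held in 8 of 20 alternatives, at 0.51 to 0.76, and in 1 of the 9 fits that leave out an array, that without tumor 1. In the other 8 the adjusted p was 0.0515 to 0.131.

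Fadd, the adaptor between Fas and caspase-8, had levels of 8.20, 8.34 and 8.59 in tumors, 8.47, 8.06 and 8.13 in non-malignant samples and 7.69, 7.70 and 8.01 in controls. All tumors and all non-malignant samples lay above the controls, the nearest non-malignant array by 0.057. The log2 fold change of tumors against controls was 0.58 (SE 0.19) and did not pass (adjusted p = 0.0655 by limma). The second Fadd probe set, 1446499_at, gave 0.32 (adjusted p = 0.443).

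**Figure D2:**
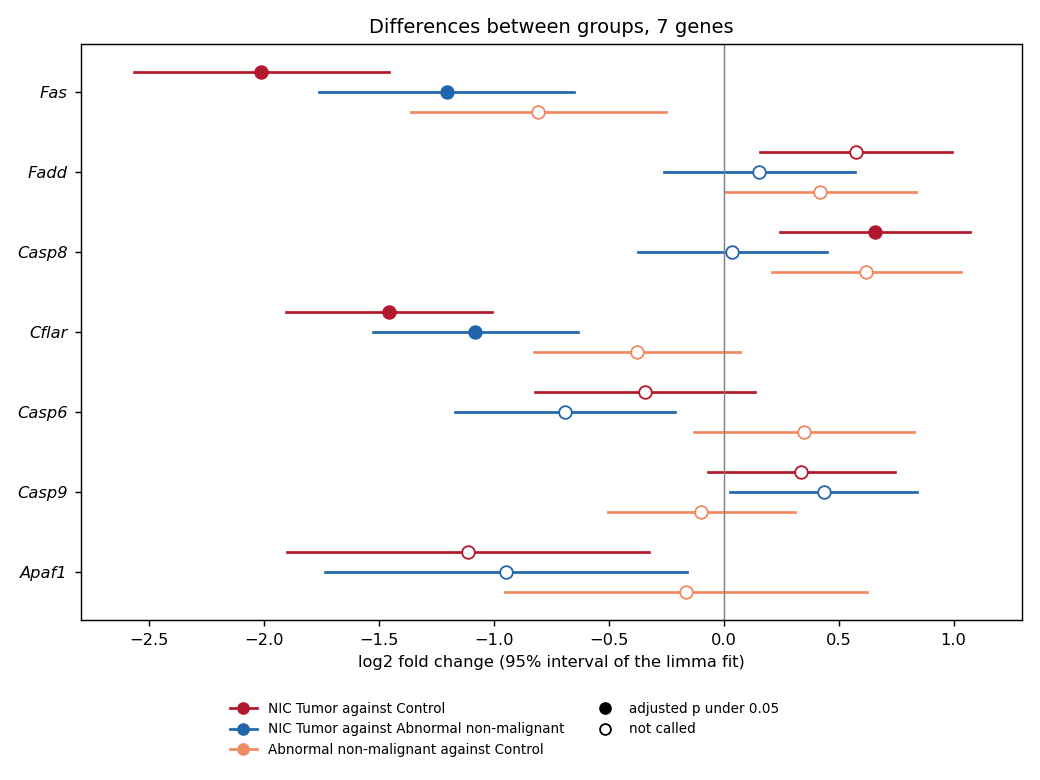
Log2 fold change (x axis) of the 7 genes (rows) in the 3 comparisons, with the 95% interval of the limma fit for each gene, not adjusted for the number of genes. Filled points have an adjusted p under 0.05: Fas and Cflar in both comparisons of tumors, and Casp8 in tumors against controls.

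None of the effector and mitochondrial genes passed against controls. Apaf1, the scaffold of the apoptosome, had levels of 7.53, 7.56 and 6.07 in tumors 1, 2 and 3, against 7.94, 8.13 and 7.94 in the non-malignant samples and 8.03, 8.36 and 8.10 in controls. All tumors lay below all other arrays, with tumor 3 far below tumors 1 and 2. The log2 fold change against controls was −1.11 (SE 0.35, adjusted p = 0.0609 by limma). It passed in 3 of 20 alternatives and in 2 of the 9 fits that leave out an array. Those 2 were −0.62 without tumor 3 (adjusted p = 0.0393) and −1.35 without tumor 1 (adjusted p = 0.0236). Over the 20 the adjusted p reached 0.174, in the fit without control 2 (−1.01). The second Apaf1 probe set, 1450223_at, read 6.95, 6.98 and 6.33 in tumors, 6.58, 8.09 and 7.98 in non-malignant samples and 7.76, 7.25 and 6.93 in controls, where tumors and non-malignant samples overlap (−0.56 against controls, adjusted p = 0.379).

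Casp9, the initiator caspase of the apoptosome, had levels of 7.94, 8.40 and 8.26 in tumors, 7.94, 7.70 and 7.66 in non-malignant samples and 8.02, 7.67 and 7.90 in controls. The groups overlapped or touched: tumor 1 and non-malignant 1 had the same value, and 44.3% of all probe sets hold such a tie between arrays. The log2 fold change of tumors against controls was 0.34 (SE 0.18, adjusted p = 0.231 by limma). The other probe sets of Casp9 gave 0.59 and 0.18, neither of which passed (adjusted p = 0.102 and 0.535).

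Casp6, whose protease cleaves lamins in dying cells, had levels of 9.52, 8.90 and 9.08 in tumors, 9.58, 10.06 and 9.94 in non-malignant samples and 9.46, 9.72 and 9.35 in controls. Tumors and controls overlapped, with a log2 fold change of −0.34 (SE 0.21, adjusted p = 0.298 by limma). Its second probe set gave −0.90 (adjusted p = 0.148). Over the 9 arrays Casp6 and Casp9 ran in opposite order (r = −0.94), again as a description over 3 groups.

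The comparison of NIC tumors with abnormal non-malignant samples sets the malignant state against the non-malignant one. Fas and Cflar were again lower in the tumors, and 0 of the 7 genes rose. The count of 2 of 7 stands beside 4.23% of all genes called, 1.53% higher and 2.7% lower. Groups did not overlap in 4 of 7, all lower in tumors (Fas, Cflar, Casp6 and Apaf1), beside 27.1% of all genes (12.3% higher, 14.8% lower). The median log2 fold change of the 7 was −0.69, and that of all genes 0.03. This comparison and that with controls share their tumor arrays.

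Fas fell by 1.21 in tumors against non-malignant samples (SE 0.25, adjusted p = 0.0343 by limma), with all tumors at least 0.84 below all non-malignant arrays. Cflar fell by 1.08 (SE 0.20, adjusted p = 0.0252), with a gap of 0.60. Both calls ended when certain single arrays were left out. The call of Fas ended without any 1 non-malignant array, control 1 or control 3 (adjusted p of 0.0568 to 0.149), and the call of Cflar without any 1 non-malignant array, tumor 2 or control 3 (0.0505 to 0.133). Neither passed with non-malignant arrays 2 and 3 merged into 1 sample (Fas −1.21, adjusted p = 0.143, and Cflar −1.10, adjusted p = 0.119). With any 1 array left out the differences themselves lay between −1.37 and −0.90 for Fas and between −1.26 and −0.89 for Cflar. With every probe set tested on its own, the adjusted p by limma was 0.0514 for Fas and 0.0408 for 1424996_at of Cflar. Its other probe sets did not pass: 1425686_at (−1.67, 0.0994), 1425687_at (−1.05, 0.106), 1449317_at (−0.55, 0.195) and 1453482_at, which pointed the other way (0.33, 0.278). On 1449317_at tumor 1 (7.75) lay above non-malignant 1 and 3 (7.67 and 7.72).

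The others did not pass between tumors and non-malignant samples. Apaf1 stood at −0.95 (adjusted p = 0.135 by limma), Casp6 at −0.69 (0.094) and Casp9 at 0.43 (0.171). Fadd (0.16, 95% interval −0.26 to 0.57) and Casp8 (0.038, 95% interval −0.37 to 0.45) showed the smallest differences, with overlapping groups. Without tumor 1, the array that lay nearer to the non-malignant ones, Apaf1 (−1.19, adjusted p = 0.0437), Casp6 (−0.87, adjusted p = 0.0171) and Casp9 (0.57, adjusted p = 0.0438) passed beside Fas and Cflar, which made 5 of 7, while the count over all genes stood at 3408 in place of 562. Without tumor 3, Apaf1 stood at −0.46 (adjusted p = 0.162). In tumors against controls the omission of tumor 1 gave 5 of 7, namely Fas, Cflar, Casp8, Apaf1 and Fadd, while the count over all genes stood at 4119 in place of 2083.

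**Figure D3:**
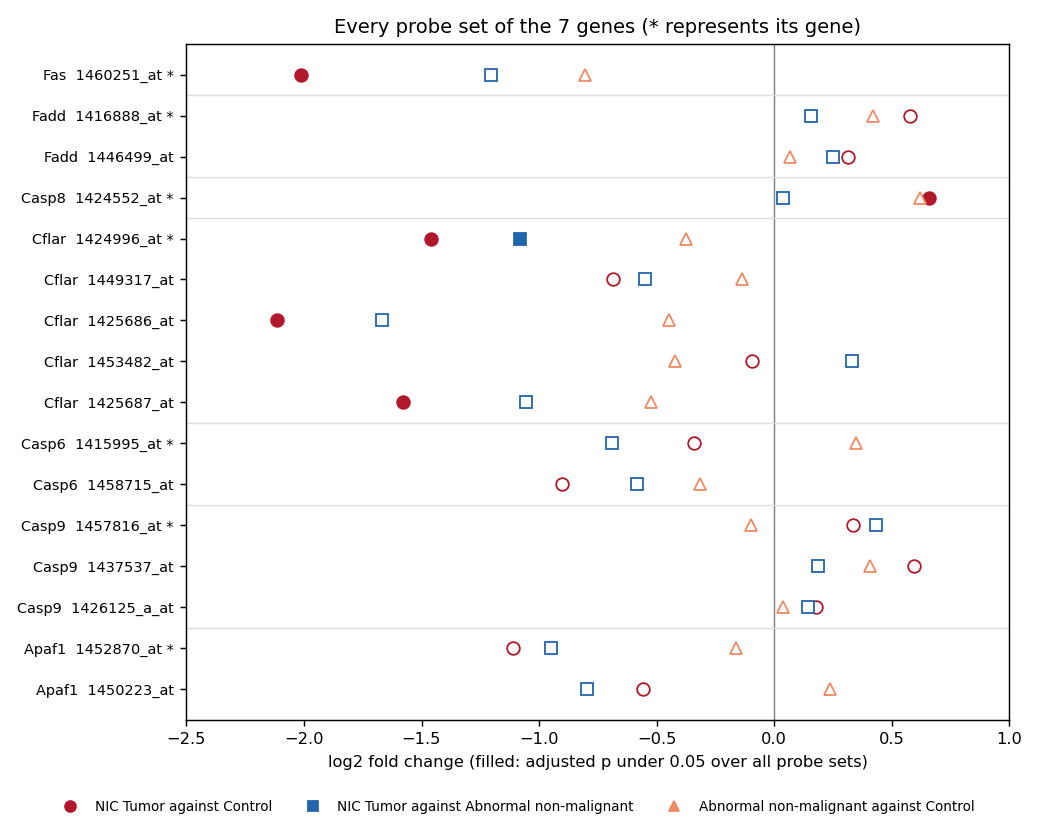
Log2 fold change (x axis) of all 16 probe sets (rows) in the 3 comparisons. A star marks the probe set that represents its gene, and filled symbols have an adjusted p under 0.05 over all probe sets. Of the 5 Cflar probe sets 3 are filled in tumors against controls, and 1453482_at lies near 0 (−0.09).

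The series also concerns overexpressed NOTCH1 in the absence of malignancy, though the labels do not say what the abnormal non-malignant samples carry. In these samples against controls, by limma 0 of the 7 genes passed, beside 3.53% of all genes (2.87% higher, 0.654% lower). An unadjusted p under 0.05 was found for 3 (Fas, Casp8 and Fadd), and for 1766 of all 13296 genes. On the probe sets that stand for the genes, groups did not overlap in 4 of 7, beside 26.1% of all genes (17.0% higher, 9.15% lower). There Fadd and Casp8 lay higher and Fas and Cflar lower in every non-malignant sample than in every control. The median log2 fold change of the 7 was −0.10, and that of all genes 0.01. This comparison shares its control arrays with that of the tumors.

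Fas stood at −0.81 in the non-malignant samples (95% interval −1.36 to −0.25, adjusted p = 0.147 by limma), with a gap of 0.56 between the groups. The residual spread of the fit includes that of Fas in the tumors. The difference of Fas passed in 3 of 20 alternatives, with an adjusted p of 0.00379 to 0.422 over the 20. Of the 9 fits that leave out an array 1 passed, that without tumor 2 (adjusted p = 0.0268). The fit of only these 2 groups also passed (adjusted p = 0.0119). Casp8 stood at 0.62 (95% interval 0.21 to 1.03, adjusted p = 0.13), Fadd at 0.42 (adjusted p = 0.37), Cflar at −0.38 (adjusted p = 0.507) and Casp6 at 0.35 (adjusted p = 0.605). For Apaf1 (−0.16, 95% interval −0.95 to 0.62) and Casp9 (−0.10, 95% interval −0.50 to 0.31) the groups overlapped. The other probe sets of Casp6 (−0.32), Apaf1 (0.24) and Casp9 (0.41 and 0.035) pointed the other way from the ones that stand for these genes. Those of Cflar also stood lower, at −0.14 (1449317_at), −0.45 (1425686_at), −0.42 (1453482_at) and −0.52 (1425687_at), and none passed. On all of these but 1453482_at the non-malignant samples and controls overlapped. They overlapped as well on the second Fadd probe set (0.065).

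Other genes of the pathway were followed in 5 lists with 43 entries, of which 40 had a probe set of their own and 36 were tested. The others were not analysed here. Fasl, which encodes the ligand of Fas, read 4.35 to 5.23 and stayed under the 40th percentile throughout, so no level is given to it. Tnfrsf10b, Lta and Casp12 did not reach the filter either.

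In tumors against controls 3 of the 36 rose and 2 fell, beside 15.7% of all genes called in either direction, with a median log2 fold change of −0.06. Among 4 death receptors and ligands tested, 1 fell: Tnfrsf1a, a receptor of tumor necrosis factor. It had levels of 9.05, 8.18 and 8.83 in tumors and 10.04, 9.76 and 9.88 in controls (−1.21, adjusted p = 0.0139 by limma, and 0.0515 without control 1). Tnf had the highest value of that list at 0.23 (adjusted p = 0.499).

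Of 10 adaptors and kinases near the receptors, 1 rose and none fell. This was Faim, named for inhibiting Fas-induced apoptosis, with levels of 7.98, 8.48 and 7.54 in tumors and 7.49, 6.73 and 6.87 in controls (0.97, adjusted p = 0.0383 by limma). Its call ended without any 1 non-malignant array, tumor 2, control 2 or control 3, at 0.73 to 1.20 with 1 array left out. Traf1, a signal adaptor of tumor necrosis factor receptors, stood lowest at −0.73 (adjusted p = 0.0664).

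Of 10 apoptosome partners and inhibitor of apoptosis genes, 2 rose and 1 fell. Endog, a mitochondrial nuclease, had levels of 7.16, 8.24 and 8.31 in tumors 1, 2 and 3, 6.57, 6.20 and 5.86 in non-malignant samples and 6.22, 5.83 and 6.14 in controls. It rose by 1.84 against controls (SE 0.31, adjusted p = 0.0059 by limma), which passed in all 20 alternatives. Aifm1, the mitochondrial apoptosis-inducing factor, rose by 0.87 (adjusted p = 0.0201), and Birc2, a ubiquitin ligase of the inhibitor of apoptosis family, fell by 1.25 (adjusted p = 0.0238). Both calls ended without tumor 2, control 2 or control 3, at 0.74 to 1.07 for Aifm1 and −1.53 to −0.92 for Birc2 with 1 array left out. Xiap, a direct caspase inhibitor, had levels of 9.60, 8.25 and 7.45 in tumors against 9.79, 9.73 and 9.59 in controls, so that tumor 1 lay among the controls. Its difference of −1.27 did not pass (adjusted p = 0.0769).

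By limma 0 of 4 other caspases and 0 of 8 execution-phase substrates passed in tumors against controls. An unadjusted p under 0.05 was found for 1 and 2 of them, and for 4280 of all 13296 genes. Casp1 had the highest mean difference among the caspases, but its 3 controls and tumors 1 and 2 lay under the 40th percentile and only tumor 3 (6.55) above it, so no fold is given. Casp2 stood lowest at −0.57 (adjusted p = 0.081). Among the substrates the outermost values were those of the DNA repair gene Parp1 (0.63, adjusted p = 0.0809) and of Dffa, the inhibitor of the caspase-activated nuclease (−0.78, adjusted p = 0.0644).

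In tumors against non-malignant samples 1 of the 36 passed, Endog, which rose by 1.69 (SE 0.31, adjusted p = 0.0244 by limma), beside 4.23% of all genes. Its call ended without non-malignant 2 or 3 or without tumor 2 or 3, and its values ran from 1.49 to 2.06 with 1 array left out. The median over the 36 was −0.24. The outermost values that did not pass were Xiap (−1.23, adjusted p = 0.123) in its list, Tnf (0.10) and Tnfrsf25 (−0.63) among receptors and ligands, and Faim (0.33) and Cyld (−0.70) among adaptors and kinases. Likewise Casp2 (−0.22) and Casp1 (−1.15) marked the range of the other caspases, and Parp1 (0.53) and Rock1 (−0.73) that of the substrates. For Tnfrsf25 tumors 2 and 3, and for Casp1 tumors 1 and 2, lay under the 40th percentile. Both genes, and Casp4, met the filter only through the non-malignant arrays, so their tests support nothing in this comparison either.

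In non-malignant samples against controls, Casp1, Casp4 and Tnfrsf25 met the filter only through the non-malignant arrays, where they were high, and all their controls lay under the 40th percentile. Their tests therefore support nothing, and their differences are given as lower bounds with the controls set to that percentile. Of the other 33 genes 0 passed by limma, beside 3.53% of all genes. At an unadjusted p under 0.05 there were 5 of the 33, beside 1766 of all 13296 genes. The median over all 36 was 0.08.

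Casp4, an inflammatory caspase that senses bacterial lipopolysaccharide, had levels of 5.93, 6.47 and 6.57 in non-malignant samples and 5.10, 4.83 and 5.19 in controls, a difference of at least 1.13. Its adjusted p by limma was 0.0271, the only one of the 36 under the threshold. This is no support for a rise, since the filter was met only through the non-malignant arrays. The call also ended without non-malignant 2 or 3 or any 1 control. Casp1, which processes interleukin-1beta, had 5.50, 6.62 and 6.32 in non-malignant samples against 3.78, 3.98 and 3.72 in controls, at least 0.95 apart (adjusted p = 0.0569). Tnfrsf25, a death receptor of lymphocytes, differed by at least 0.37 (adjusted p = 0.0774).

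Of 9 myeloid markers listed, 7 were tested in this comparison and 1, Ctss, rose (2.34, adjusted p = 0.0141 by limma). S100a8 (2.76, adjusted p = 0.0837) and S100a9 (2.61, adjusted p = 0.117) did not pass, and neither did Mpo (0.34, adjusted p = 0.825), Csf1r (0.09), Lyz2 (0.07) and Elane (0.05). Itgam and Fcgr3 did not reach the filter. The mean level of the 9 was 6.61 to 6.65 in non-malignant samples and 5.51 to 5.85 in controls. In the tumors it was 5.94, 7.24 and 6.35 on arrays 1, 2 and 3. Casp4 levels on the same arrays were 5.09, 5.26 and 6.06, where the 40th percentile stood at 5.15, 5.22 and 5.30. The part of these markers in the levels of Casp4 and Casp1 was not tested.

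The other outermost values in non-malignant samples against controls did not pass. They were Tnfrsf1a (−0.66, adjusted p = 0.273 by limma), Faim (0.64) and Traf1 (−0.20), Casp2 (−0.35), Aifm1 (0.65) and Birc2 (−0.50), and Dffb (0.37) and Acin1 (−0.37).

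**Figure D4:**
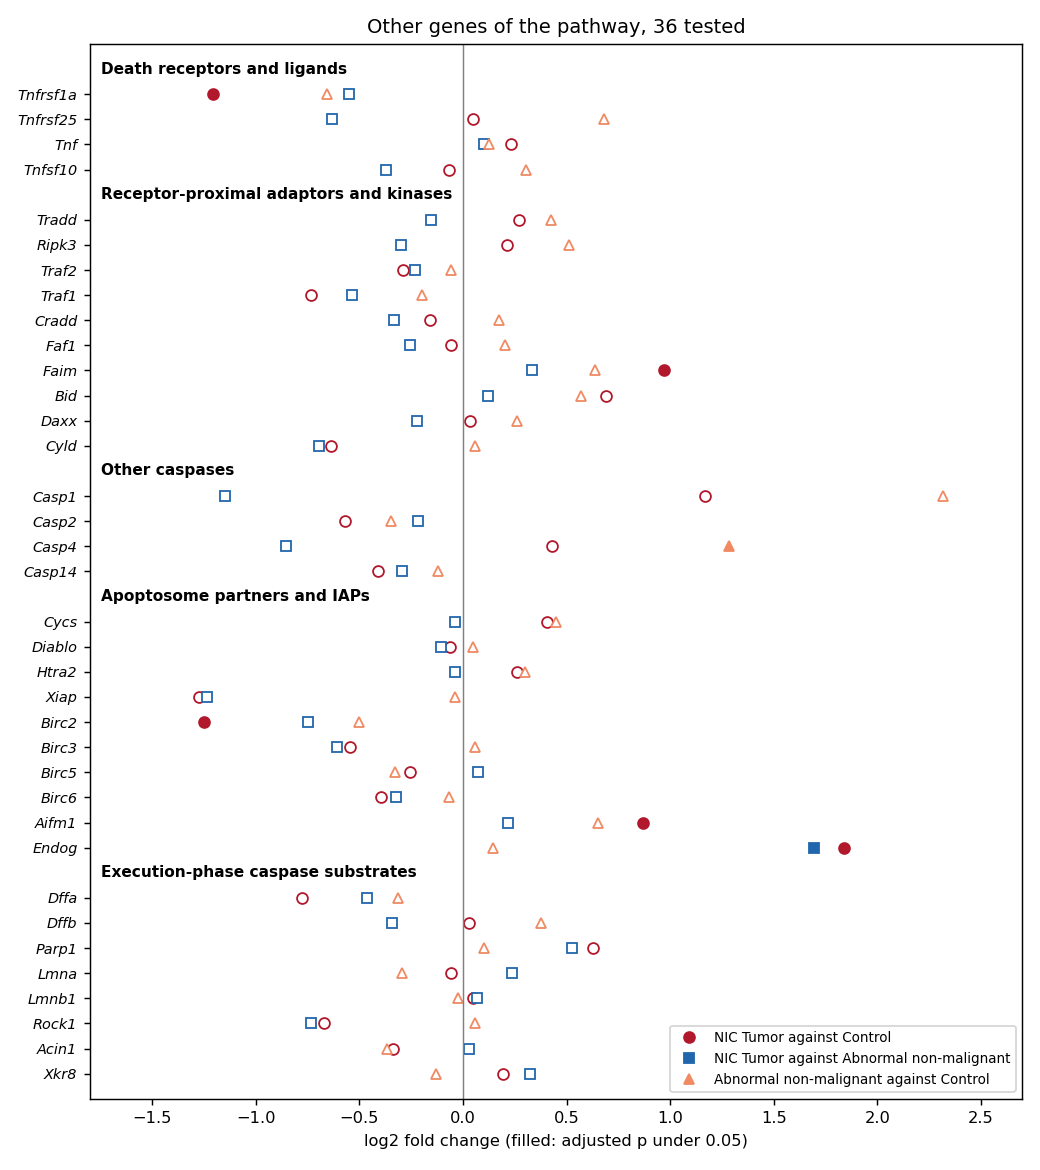
Log2 fold change (x axis) of the 36 other pathway genes tested (rows, by list) in the 3 comparisons, filled where the adjusted p is under 0.05. Endog is filled in both comparisons of tumors (1.84 and 1.69), and Casp4 alone is filled in non-malignant samples against controls (1.28), where the controls of Casp4, Casp1 and Tnfrsf25 lay under the 40th percentile.

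Of 23 markers tested over 5 lists, 1 rose and 2 fell in tumors against controls, which is 13% beside 15.7% of all genes. In non-malignant samples against controls 2 rose and 0 fell, which is 8.7% beside 3.53% of all genes. Between tumors and non-malignant samples 0 were called, beside 4.23% of all genes. Ctss rose in tumors against controls (2.51, adjusted p = 0.00593 by limma), 1 of 7 myeloid markers tested. The erythroid list, of which 3 of 5 had a probe set, had a mean of 5.81 to 7.45 in tumors, 6.17 to 6.44 in non-malignant samples and 5.20 to 5.48 in controls. Of its 2 tested genes 0 were called by limma in tumors against controls. Both had an unadjusted p under 0.05, as did 4280 of all 13296 genes. Tumor 2, the lowest array for Fas and Cflar, had the highest myeloid and erythroid means. Of 4 B cell markers Cd79b fell in tumors (−1.38, adjusted p = 0.047), at a list mean of 5.80 to 6.39 in tumors, 5.67 to 6.34 in non-malignant samples and 6.17 to 6.46 in controls. Of 5 T lineage markers Thy1 fell (−1.29, adjusted p = 0.0212), and 0 of 5 thymic stroma markers passed (0 at an unadjusted p under 0.05). In non-malignant samples Cd2, another T lineage marker, rose against controls (1.42, adjusted p = 0.0072 by limma). No marker of the 5 lists was called between tumors and non-malignant samples by limma. There 6 of the 23 had an unadjusted p under 0.05, beside 3444 of all 13296 genes. The part of these markers in the falls of Fas and Cflar was not tested.

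For each of the 7 genes the 3 genes with the most similar pattern were taken by the Pearson correlation of log2 levels over the 9 arrays, among all genes tested and without predicted or clone names. Since the highest values of so many are picked and the arrays form 3 groups, all are high. For Fas they were Letm2 (r = 0.98), Cflar (0.97) and Slc49a4 (0.97), so that 1 of the 7 is among the nearest of another. For Cflar they were Fam193b (0.98), Creb1 (0.98) and Wasl (0.97). Apaf1 was most like Zfp275 (0.99), Zbtb33 (0.99) and Papolg (0.99), Casp6 like Capza1 (0.98), Txn1 (0.96) and Rap1a (0.96), and Casp9 like Marcksl1 (0.98), Lrrc23 (0.97) and Snapc4 (0.97). The nearest genes to Fadd were Taf10 (0.96), Cox5b (0.96) and Eif3c (0.96), and those to Casp8 were Tmem131 (0.95), Acsf2 (0.95) and Oas1c (0.95).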

How the data were processed

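RNA of sorted mouse cells was measured on 9 Affymetrix arrays in 3 groups of 3. The authors deposited 1 table of 45101 probe sets, taken as log2 from its range of 2.68 to 14.57, with array medians of 5.67 to 5.77. Per the labels' protocols, biotin-labelled cRNA was made from total RNA; how background was removed and probe sets were summarized or normalized is not given in the sources used here. Probe sets with 1 gene symbol (34945; 64 Affymetrix controls were left out) were assigned to genes through Entrez ID or symbol. A gene was tested if its probe set of highest mean passed its array's 40th percentile on 3 or more arrays.

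limma 3.58.1 in R 4.3.3 was fitted to all 9 arrays with 1 mean per group and a variance trend (residual degrees of freedom 6, prior 3.6), with Benjamini-Hochberg adjustment over all genes tested, two-sided, and a threshold of 0.05. The fit was tested on simulated data. An exact permutation test of 3 against 3 was not run, since it cannot reach the threshold. The number of arrays limits the precision. Genes named are the 7 members, the called genes and outermost values of each pathway list in each comparison, and the 3 most correlated genes of each member. The members and lists were chosen with earlier results of these data known. The alternatives were 11 settings and the omission of each array. Among the settings, the merging of non-malignant arrays 2 and 3 concerns the pair that lay closest together. Sequences were read with Python 3.11.15 and pandas 2.3.3, and figures drawn with matplotlib 3.10.9.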

Additional observations from a re-analysis of the deposited data

How the results depend on the processing

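In tumors against controls, the falls of Fas and Cflar and the rise of Endog passed in all 20 alternatives. The number of the 7 genes called there was 7 with array weights and 2 to 5 with 1 array left out, against 3. In tumors against non-malignant samples it was 1 with quantile scaling, with the mean of the probe sets of a gene, with every probe set on its own and with the replicate block, 0 with only the 2 groups compared or non-malignant arrays 2 and 3 averaged, 5 with array weights and 0 to 5 with 1 array left out, against 2. In non-malignant samples against controls it was 3 with array weights, 1 with only the 2 groups compared and 0 to 1 with 1 array left out, against 0. Of the 36 other pathway genes, 15 were called in tumors against controls with array weights, 2 with only the 2 groups compared and 2 to 12 with 1 array left out, against 5. In tumors against non-malignant samples the count was 18 with array weights, 2 with the mean of the probe sets, 0 with only the 2 groups, the replicate block or the averaged pair, and 0 to 8 with 1 array left out, against 1. In non-malignant samples against controls it was 10 with array weights, 3 with only the 2 groups, 0 with the filter at the 60th percentile or the averaged pair, and 0 to 3 with 1 array left out, against 1.

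Over all genes, tumors against controls gave 4885 calls with array weights, 841 with only the 2 groups and 922 to 4119 with 1 array left out, against 2083. Tumors against non-malignant samples gave 5700, 110 and 57 to 3408, with 287 under the replicate block and 66 with the averaged pair, against 562. Non-malignant samples against controls gave 2421, 1119 and 203 to 709, with 206 for the averaged pair, against 469. Array weights thus raised every count, the background included. The cause of these shifts was not tested.

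Same-numbered arrays did not all deviate together (correlations of −0.05 to 0.22), so the numbers were not taken as pairs. With the replicate block Fas (adjusted p = 0.0572) lost its call in tumors against non-malignant samples, where Cflar kept it narrowly (0.04996), and Casp8 (0.0706) lost its call in tumors against controls.

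Directions turned only for small values that had not passed. With the mean of the probe sets, Apaf1 (0.037) and Casp9 (0.11) turned positive in non-malignant samples against controls. In tumors against non-malignant samples, Casp8 stood at −0.00084 with median scaling and ran from −0.081 (without tumor 3) to 0.12 with 1 array left out, and Tnf stood at −0.031 with array weights and ran from −0.16 (without tumor 3) to 0.29. Against controls Tnf ran from −0.033 (without tumor 3) to 0.41.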
